A study of Mus musculus with 9 samples.

Results

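The transcripts described here come from the mouse mitochondrial genome. They are all genes of the count table whose symbol starts with mt-, which gave 37 of 57010 genes: 13 mRNA genes, 2 rRNA genes and 22 tRNA genes. The study asks what the CCR4-NOT complex subunit Cnot3 does in the developing cerebral cortex, and whether loss of p53 alters the response to its removal. Cortical tissue was dissected from single mouse embryos at E12.5, with one library per embryo and 3 embryos in each of 3 groups. Control (Ctrl) embryos carry the genotype label WT, Cnot3 conditional knockout (cKO) embryos have floxed Cnot3, and Cnot3;Trp53 double knockout (dcKO) embryos, labelled Cnot3;p53 dcKO, have floxed Cnot3 and floxed Trp53. The deletions are made by Emx1-Cre, which is active in radial glia of the dorsal telencephalon and in their progeny, so blood, vessel, meningeal and immune cells in the tissue keep both genes. The genotype of the controls at the floxed and Cre loci, and the sex of the embryos, are not given in the sources used here.

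The mitochondrial genome is a small circle, present in many copies per cell, and the mitochondrial RNA polymerase copies both of its strands into long precursors. These are cut, largely at the tRNAs that punctuate them, into mRNAs, rRNAs and tRNAs, and most of the mRNAs receive a short poly(A) tail inside the organelle, away from the cytoplasmic CCR4-NOT deadenylase. The mRNAs encode core subunits of respiratory complexes I, III and IV and of the ATP synthase, complex V, while all other subunits, and every factor that transcribes, processes and degrades mitochondrial RNA, come from nuclear genes.

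Reads counted on genes numbered 26455779, 21193798 and 28869816 in the Ctrl embryos, 25946075, 24835674 and 25218324 in cKO, and 34196798, 45073349 and 23275370 in dcKO, always in the order of replicates 1, 2 and 3. The deepest libraries were those of dcKO 2 and dcKO 1. The target gene was read first. Cnot3 stood at 117.3, 107 and 98.2 CPM (reads of a gene per 1e+06 counted reads, scaled by TMM factors) in Ctrl, at 14.96, 17.3 and 14.6 in cKO, and at 7.33, 48.2 and 19.0 in dcKO, below every control in all 6 mutant embryos. Trp53 stood at 237, 254 and 215 CPM in Ctrl, at 167, 164 and 167 in cKO, and at 15.1, 110.4 and 20.6 in dcKO. Both dcKO 2 and, by less, dcKO 3 had more Cnot3 RNA than any cKO embryo. dcKO 2 lay between the controls and the other dcKO embryos for both genes, so its label is borne out less plainly than those of the other 8 embryos. It is also the embryo with the highest mitochondrial share, and fits of the mitochondrial genes without it are given below.

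The tissue label was checked against markers. All 5 dorsal telencephalon markers were detected, with summed levels of 1544, 1230.1 and 967 CPM in Ctrl, 766, 732 and 789 in cKO and 929, 1218 and 1178 in dcKO, and Lhx2 was the most abundant. With dcKO 3 omitted, edgeR called 1 of the 5 lower in dcKO, beside 15.3% of all genes, and 2 lower in cKO, beside 751 of 13680 genes. The 7 subpallium markers summed to between 1.09 and 9.12 CPM, the highest value being that of dcKO 2. There Dlx1, Dlx2, Gsx2, Gad2 and Nkx2-1 stood at 1.20, 2.25, 2.45, 2.04 and 0.46 CPM, each above all other embryos. Dlx5 was at most 0.074 CPM. Lhx6 went the other way, with 2.52, 4.46 and 1.81 CPM in cKO and its lowest value, 0.69, in dcKO 2. Only Lhx6 was tested. It was not called with all 9 embryos. Without dcKO 3, edgeR called it higher in cKO, and not in dcKO, beside 722 of 13680 genes. Emx1, the gene whose promoter drives the Cre, stood at 119.9, 69.4 and 43.8 CPM in Ctrl, at 20.5, 20.4 and 23.7 in cKO, and at 7.94, 17.7 and 80.9 in dcKO. The dcKO embryos therefore differ among themselves: dcKO 3 had the highest Emx1 level of its group and Tubb3, a neuronal tubulin, at 624 CPM against 114 in dcKO 1 and 223 in dcKO 2. dcKO 3 also stands apart for the mitochondrial transcripts. The fold changes and calls of the mitochondrial genes and of the gene lists in dcKO against Ctrl are therefore given with it and without it. Since dcKO 3 was picked by its low mitochondrial levels, higher calls of mitochondrial genes without it follow in part from that choice. The gene lists were not refitted without dcKO 2.

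The mitochondrial share of counted reads varied most among dcKO embryos. It was 0.663%, 0.836% and 0.949% in Ctrl (0.816% ± 0.144, mean ± SD, n = 3) and 0.749%, 0.93% and 0.89% in cKO (0.856% ± 0.0954, n = 3). In dcKO it was 1.57%, 1.83% and 0.627% (1.34% ± 0.632, n = 3). The share was above every control in dcKO 1 and dcKO 2 and below every control in dcKO 3, so the dcKO group spans the controls, while the cKO values lie inside their range. The difference of group means from Ctrl was 0.0402 percentage points in cKO and 0.525 in dcKO, the latter smaller than the SD among dcKO embryos, and dcKO differed from cKO by 0.485 points. Without dcKO 3 the difference from Ctrl was 0.882 points, and without dcKO 2 it was 0.281. These are shares of poly(A)-selected RNA from mixed tissue, in which more mitochondrial RNA per cell, less other RNA per cell and another mix of cells cannot be told apart.

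**Figure D1:**
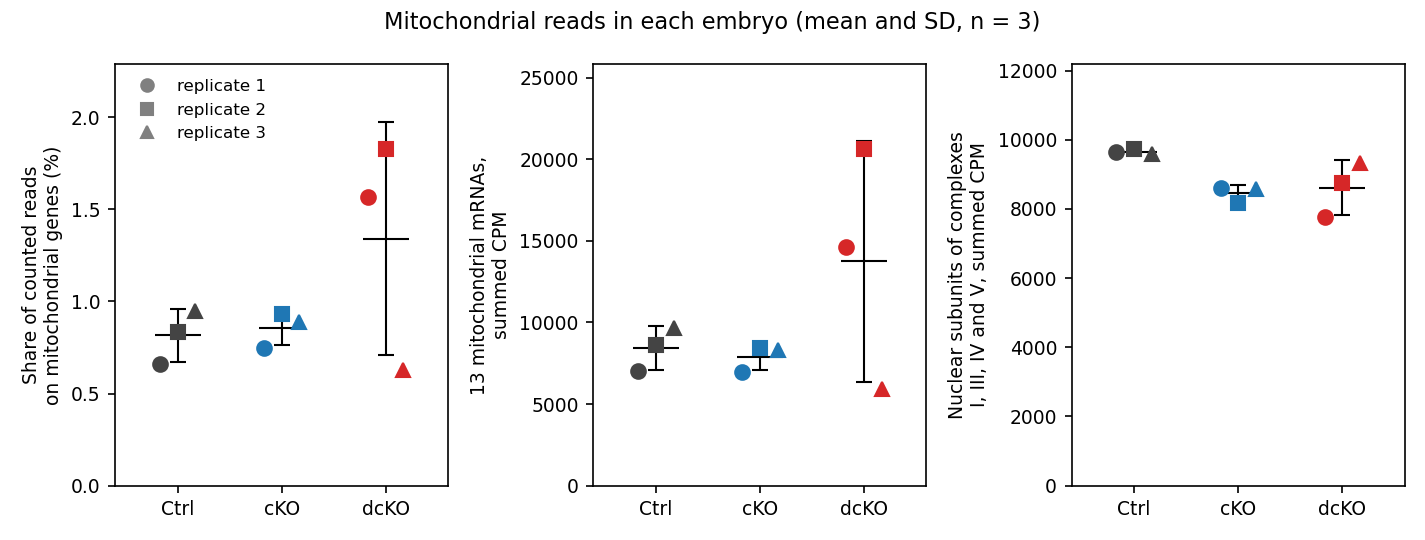
Mitochondrial reads in each embryo. Points are single embryos (circle, replicate 1; square, replicate 2; triangle, replicate 3), with group mean and SD (n = 3) in black. Left, share of all counted reads on mitochondrial genes, in percent; middle, summed CPM of the 13 mitochondrial mRNAs; right, summed CPM of 71 nuclear-encoded subunits of complexes I, III, IV and V. The dcKO embryos spread from 0.627% to 1.83%, on both sides of the controls.

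The mRNAs made up nearly all of these reads. They held 97.8% to 98.5% of the mitochondrial reads in the 9 embryos, the rRNAs 1.43% to 2.11% and the tRNAs 0.0788% to 0.144%. Summed over the 13 mRNAs, the level was 6997, 8594 and 9680.4 CPM in Ctrl, 6947, 8421 and 8290.4 in cKO and 14644, 20650.5 and 5930 in dcKO. Complex IV mRNAs took the largest part of the mRNA reads, 54.6% ± 0.542 in Ctrl (SD, n = 3), followed by the 7 complex I mRNAs with 25.3% ± 0.24, complex V with 10.2% ± 0.552 and complex III with 9.91% ± 0.267. In dcKO those parts were 56.1% ± 3.66, 24.4% ± 2.14, 10.2% ± 0.672 and 9.23% ± 0.859 (SD, n = 3). Complexes V and III were not separated beyond their spread, and in Ctrl 3 complex III was above complex V.

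Per kb of transcript, the levels of the mRNAs in Ctrl differed more than 10-fold between the highest and the lowest. The complex IV subunits mt-Co3 and mt-Co1 led, at 1616 ± 149 and 1548 ± 333 CPM per kb (SD, n = 3), with mt-Co2 at 1374 ± 235 and the complex V subunit mt-Atp6 at 1219 ± 152. Each of these 4 levels differs from its neighbour in the order by less than the spread between embryos. A middle group followed, with mt-Nd3 at 780.3 ± 46.2, mt-Cytb at 732 ± 134 and mt-Nd1 at 721 ± 125 CPM per kb, again not separated beyond their spread. Below them stood mt-Nd4 at 315 ± 40.5, mt-Nd2 at 283 ± 42.8 and mt-Nd4l at 257 ± 43.6 CPM per kb. The lowest were mt-Nd6 at 159 ± 41.8, mt-Nd5 at 155 ± 42.3 and mt-Atp8 at 133 ± 19.4, of which mt-Nd6 is the only mRNA gene on the minus strand of the reference. In cKO and dcKO, mt-Co1 led, at 1528 ± 154 and 2807 ± 1369 CPM per kb. The next was mt-Co3, at 1478 ± 77.2 and 2332 ± 1104, which is not separated from mt-Co1 beyond the spread.

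**Figure D2:**
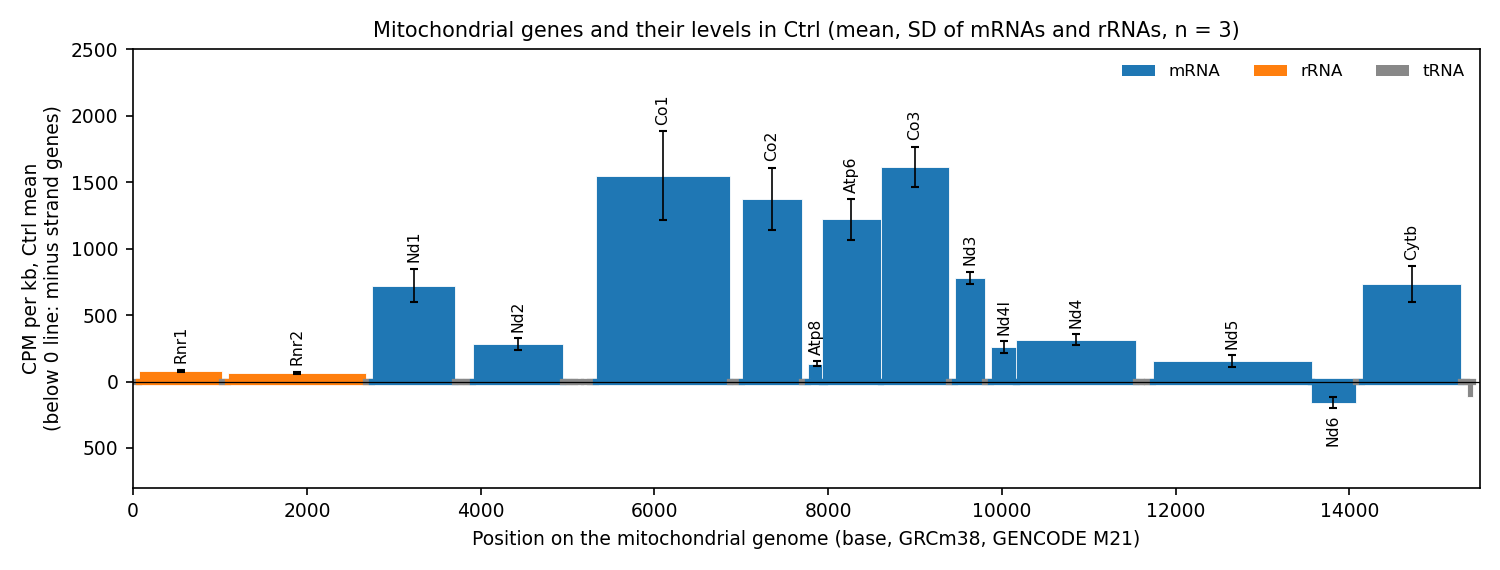
Genes of the mitochondrial genome at their GRCm38 positions (x axis, bases), with the mean level in Ctrl as CPM per kb (y axis; bars of mRNAs and rRNAs with SD, n = 3 embryos), and genes of the minus strand drawn below the 0 line. The mRNAs range from 133 (mt-Atp8) to 1616 (mt-Co3), the rRNAs stand at 62.3 and 78.7, and mt-Nd6 is the one mRNA below the line.

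The rRNAs are the RNA cores of the mitochondrial ribosome, and the libraries were selected on poly(A). mt-Rnr1 stood at 78.7 ± 10.8 CPM per kb in Ctrl and mt-Rnr2 at 62.3 ± 8.91, both below every mRNA. The mRNA reads per rRNA read numbered 48.0, 46.3 and 51.1 in Ctrl, 51.3, 52.7 and 51.2 in cKO, and 68.8, 52.9 and 55.3 in dcKO. Every mutant embryo had a higher ratio than every control, although the gap between Ctrl 3 at 51.1 and cKO 3 at 51.2 is small. The smallest two-sided p that an exact permutation test of 3 embryos against 3 can give is 0.1.

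Of the 22 tRNA genes, 9 had reads and 13 had none in any embryo, where a count of 0 allows up to 3 reads per library. Most of the reads lay on the minus strand. That strand holds 8 of the tRNA genes, of which 7 had reads, 3023 in all, whereas of the 14 on the plus strand 2 had reads, 38 in all. mt-Tp, the proline tRNA next to the control region, was the only one with more than 10 reads in every embryo, with 154, 184 and 217 reads in Ctrl, 131, 293 and 163 in cKO and 472, 749 and 88 in dcKO. mt-Tn, the asparagine tRNA, had 2 to 87 reads and mt-Tc, the cysteine tRNA, 1 to 98, and both lie in the cluster of minus-strand tRNAs between mt-Nd2 and mt-Co1. The other 6 tRNAs with reads had at most 28 in any embryo. The sequences of the 3 leading tRNA genes are shown because they carry most tRNA reads; they are read 5′ to 3′ on the minus strand from GENCODE M21 transcripts (GRCm38), at M:15356-15422, M:5089-5159 and M:5192-5257.
mt-Tp: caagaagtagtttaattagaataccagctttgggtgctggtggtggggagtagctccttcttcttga
mt-Tn: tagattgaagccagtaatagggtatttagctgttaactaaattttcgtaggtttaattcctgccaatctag
mt-Tc: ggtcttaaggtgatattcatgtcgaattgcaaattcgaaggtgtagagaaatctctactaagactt

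Some mitochondrial genes share bases, and reads in a stretch shared on the same strand cannot be given to one gene. mt-Atp8 and mt-Atp6 overlap over 43 bases (M:7927-7969) and are translated from one RNA in different frames, mt-Nd4l and mt-Nd4 overlap over 7 bases (M:10167-10173), and mt-Nd5 and mt-Nd6 over 14 bases on opposite strands (M:13552-13565). The level of mt-Atp8 is the most exposed, since the overlap covers 43 of its 204 bases. The sequences at the overlap on the plus strand are shown with the shared bases in capitals, which begin with the start codon of the downstream gene.
end of mt-Atp8: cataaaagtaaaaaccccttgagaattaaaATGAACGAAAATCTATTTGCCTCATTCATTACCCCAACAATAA
start of mt-Atp6: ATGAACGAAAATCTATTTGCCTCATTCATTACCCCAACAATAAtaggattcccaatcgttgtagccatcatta
end of mt-Nd4l: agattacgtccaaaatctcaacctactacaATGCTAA
start of mt-Nd4: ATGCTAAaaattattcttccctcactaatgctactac

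Several of the mRNAs end in the middle of a stop codon, which the poly(A) tail added in the organelle completes. The last 30 bases of 4 mRNA genes are shown, on the plus strand, with the last codon or what the gene holds of it in capitals. mt-Co3, mt-Nd4 and mt-Cytb end in a lone T, and mt-Nd1 as annotated carries a whole stop codon. The last 2 bases of that codon (M:3706-3707) are shared with the tRNA gene mt-Ti on the same strand.
mt-Co3: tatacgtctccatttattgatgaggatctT
mt-Nd4: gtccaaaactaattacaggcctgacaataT
mt-Cytb: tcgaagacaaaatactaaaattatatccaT
mt-Nd1: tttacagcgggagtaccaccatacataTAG

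Nuclear copies of mitochondrial DNA share reads with 7 of the mRNA genes. The annotation holds 9 such pseudogenes that align to mitochondrial mRNA genes, and 7 of them lie side by side on chromosome 1 (GRCm38 1:24611535-24616197), 6 of these without a mismatch over the aligned bases. Their counts follow the mitochondrial genes closely: the copies of mt-Co2, mt-Co3, mt-Nd3 and mt-Nd4l (Gm28661, Gm28437, Gm28438 and Gm10222) had between 99.3% and 100.2% of the reads of their mitochondrial counterparts in the 9 embryos. Gm10925 had 126% to 133% of the reads of mt-Atp6, Gm28439, which holds the first 876 of 1378 bases of mt-Nd4, 43.6% to 51.7%, and Gm29216, which aligns to 483 of the 1545 bases of mt-Co1, 26.7% to 29.8%. The counts of these 7 mRNAs are therefore uncertain, since how reads with several equal alignments were assigned is not given in the sources used here.

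The copies on chromosome 2 differ more from the mitochondrial genes and had few reads. Gm13340 has 37 mismatches over the 1545 bases of mt-Co1 and had 0.222% to 0.383% of its reads. Gm13339 has 17 mismatches over 510 bases of mt-Nd2 and had at most 56 reads. mt-Nd1, mt-Nd5, mt-Nd6, mt-Cytb and mt-Atp8 have no annotated copy on this list, and mt-Nd2 has only Gm13339. With the copies added, the share of counted reads was 1.03%, 1.26% and 1.44% in Ctrl, 1.15%, 1.41% and 1.35% in cKO, and 2.35%, 2.75% and 0.959% in dcKO, again highest in dcKO 2 and lowest in dcKO 3. The list of copies also held Gm10076, a long noncoding RNA on chromosome 14 that is no copy of mitochondrial DNA, and without it 8 copies were tested. Their log2 fold changes were below 0 for all 8 in cKO (median -0.10) and above 0 for all 8 in dcKO (median 0.61). Without dcKO 3 the dcKO median was 0.96 and edgeR called 4 of the 8 higher, beside 8.46% of all genes. The ends of mt-Co2 and of its copy are shown to make visible how little sets them apart: capitals mark the bases of mt-Co2 beyond the end of the copy.
mt-Co2: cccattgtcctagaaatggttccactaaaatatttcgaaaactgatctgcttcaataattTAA
Gm28661: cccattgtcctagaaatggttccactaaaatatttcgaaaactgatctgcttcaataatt

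Gm29216 differs from mt-Co1 by 1 base over its 483 aligned bases, A1066T, with positions counted from 1 at the first base of the mt-Co1 transcript and the base of mt-Co1 given first. The differing base is in capitals.
mt-Co1: ggaAttgttttatccaact
Gm29216: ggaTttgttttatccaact

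For the comparisons between genotypes, edgeR's quasi-likelihood test was applied to 13680 genes, each with a count above 10 in all 9 embryos. Of the 37 mitochondrial genes 16 were tested, the 13 mRNAs, both rRNAs and mt-Tp, and 21 tRNA genes were not. A gene was called at an adjusted p under 0.05 with an absolute log2 fold change above 1. The controls are shared by both comparisons with Ctrl, so their results are not independent of each other. The number within the label code of each embryo served as an alternative block. It is called collection number here as a name only, since the labels do not say what it stands for.

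In the cortex without Cnot3, mitochondrial transcripts were close to the control level. Of the 16 genes tested, 0 were called by edgeR in cKO against Ctrl, where 0.0146% of all genes tested were called (2 higher, 0 lower), and 0 by DESeq2, which called 4.94% of all genes higher and 3.87% lower. The edgeR background depends on the embryos in the model: over all genes it called 722 higher and 751 lower in cKO without dcKO 3, 769 and 372 without dcKO 2, 518 and 401 without dcKO 1, and 945 and 813 with only the 6 embryos compared, each time with 0 mitochondrial genes. At an unadjusted p under 0.05 edgeR and DESeq2 also gave 0 of 16, whereas edgeR gave 15.3% of all genes higher and 11.7% lower at that level. With only the 6 embryos compared edgeR gave 3 of 16 at that level, beside 7517 of 13680 genes, after correction for GC content 4, beside 4780, and limma voom 3, beside 8212, again with 0 called. The log2 fold changes of the 13 mRNAs ran from -0.41 for mt-Atp8 to 0.05 for mt-Nd5, with a median of -0.06, beside 0.01 over all genes tested, and their SEs from 0.32 to 0.45. Only mt-Nd5 and mt-Nd6 were above 0, and both were below 0 with limma voom, without the filter on low counts and after correction for GC content, which moved the median to -0.30. Blocked by collection number they stood at 0.41 (edgeR adjusted p = 0.024) and 0.39 (edgeR adjusted p = 0.0195), and 3 of 16 genes had an unadjusted p under 0.05, beside 7085 of 13680 genes, with 0 called.

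**Figure D3:**
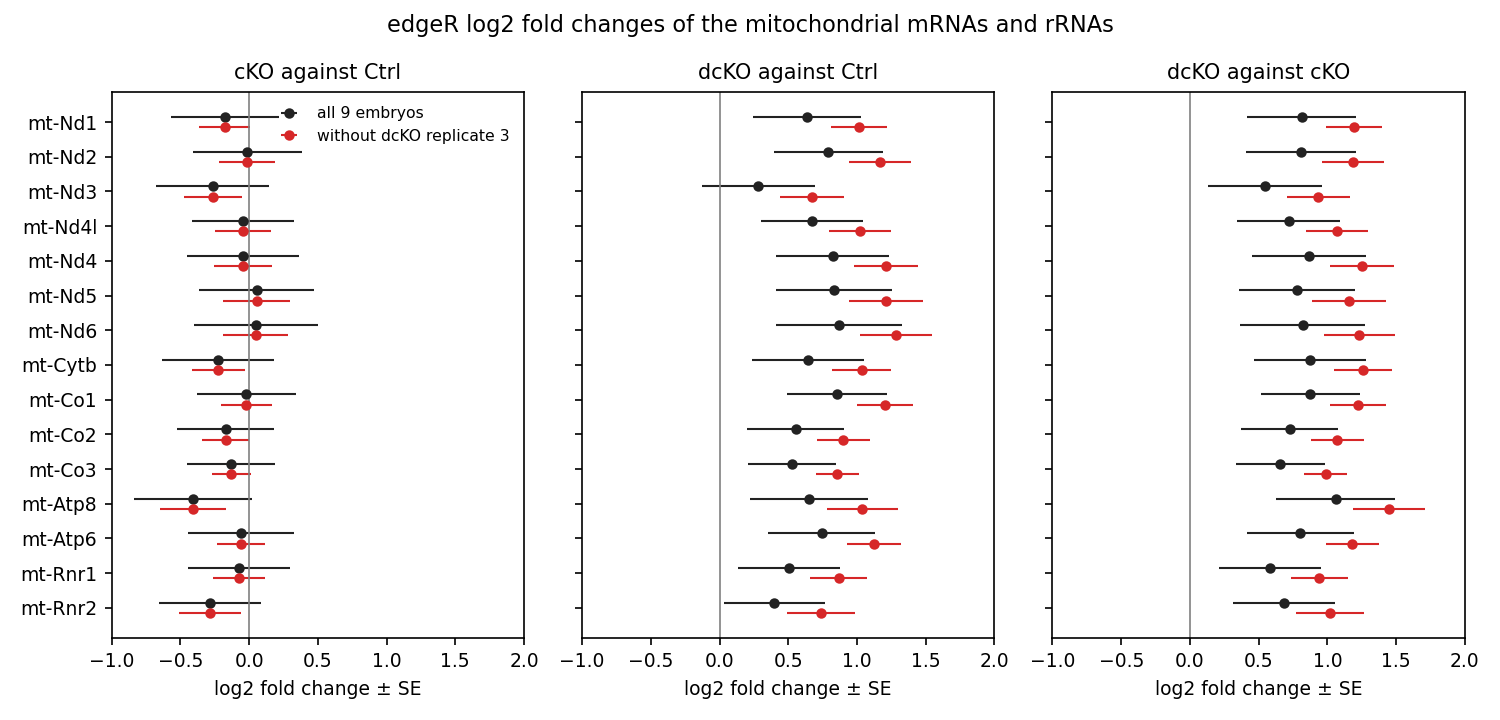
Log2 fold changes of the 13 mitochondrial mRNAs and 2 rRNAs from edgeR (x axis), with bars of 1 SE, for each comparison between groups with all 9 embryos (black) and with dcKO 3 left out (red), and a grey line at 0. In dcKO against Ctrl the mRNAs run from 0.28 to 0.87 with all embryos and from 0.67 to 1.28 without dcKO 3.

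For 2 of the 16 genes every cKO embryo lay below every control, beside 57.2% of all genes tested that did not overlap between these groups in either direction. mt-Atp8, a small subunit of the ATP synthase, stood at 23.7, 26.2 and 31.4 CPM in Ctrl and at 16.9, 21.3 and 23.1 in cKO, a log2 fold change of -0.41 (SE 0.43, edgeR adjusted p = 0.572). mt-Nd3, a membrane subunit of complex I, stood at 281, 253 and 281 CPM in Ctrl and at 213, 222 and 244 in cKO, a log2 fold change of -0.26 (SE 0.41, edgeR adjusted p = 0.712). The exact permutation p was 0.1 for both, the smallest that 3 embryos against 3 allow.

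The other members showed overlapping groups in cKO. mt-Co1, the catalytic subunit of complex IV, stood at 1809, 2581 and 2787 CPM in Ctrl and at 2087, 2480.4 and 2514 in cKO. mt-Cytb, the only complex III subunit of this genome, stood at 682, 839 and 989.5 CPM in Ctrl and at 637, 747 and 764 in cKO, and mt-Nd1, a complex I subunit, at 568, 694 and 808 CPM in Ctrl and at 534, 653 and 642 in cKO. Ctrl 1 had the lowest control value of all 3 genes, and cKO 1 the lowest cKO value. The log2 fold changes of the rRNAs were -0.07 for mt-Rnr1 and -0.28 for mt-Rnr2, and that of mt-Tp was -0.09. When embryos were blocked by collection number, mt-Rnr1 stood at 0.12, and the median of the mRNAs was 0.12 with 9 of 13 above 0.

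In the dcKO group, mitochondrial mRNA levels were high in 2 embryos and low in 1. Of the 2 high embryos, dcKO 2 kept Cnot3 at 48.2 CPM and Trp53 at 110.4 CPM. mt-Co1 stood at 4963 CPM in dcKO 1, 6067 in dcKO 2 and 1979 in dcKO 3, beside controls between 1809 and 2787. mt-Cytb stood at 1333, 2094 and 500.2 CPM, beside controls between 682 and 989.5, and mt-Nd1 at 1113, 1678 and 422.5, beside controls between 568 and 808. dcKO 1 and dcKO 2 were above every control in all 3 genes, and dcKO 3 was below every control for mt-Cytb and mt-Nd1 but not for mt-Co1.

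The other complex I mRNAs had the same order of embryos. mt-Nd2 stood at 522, 799.7 and 204 CPM in dcKO against 243 to 327 in Ctrl, mt-Nd4 at 739.5, 1268 and 296 against 374 to 484, and mt-Nd4l at 126, 185 and 54.8 against 63.6 to 89.4. mt-Nd5 stood at 513, 795 and 200.4 CPM against 194 to 334, and mt-Nd6 at 155, 247 and 50.9 against 58.1 to 99.4. Here dcKO 3 lay below every control except for mt-Nd5, whose lowest control was 194. mt-Nd3 differed, since dcKO 1 with 287 CPM was barely above the controls of 253 to 281, and dcKO 2 and dcKO 3 had 578 and 126. For the remaining mRNAs, of complexes IV and V, mt-Co2 stood at 1436, 2076 and 630.3 CPM against 794 to 1112 and mt-Co3 at 1991, 2601 and 894 against 1171 to 1396, with mt-Atp6 at 1427, 2188 and 556 against 735 to 941 and mt-Atp8 at 38.6, 72.9 and 16.1 against 23.7 to 31.4. The rRNAs followed, with mt-Rnr1 at 104, 170.1 and 46.2 CPM against 63.6 to 83.5 and mt-Rnr2 at 109, 220.01 and 61.1 against 82.3 to 107.

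The log2 fold changes in dcKO against Ctrl were above 0 for all 13 mRNAs, from 0.28 for mt-Nd3 to 0.87 for mt-Nd6, with a median of 0.67 beside 0.11 over all genes tested, but after correction for GC content the median was 0.01 with 7 of 13 above 0, and when embryos were blocked by their collection number all 13 were below 0. Blocked that way, the median of the 13 mRNAs was -0.76 and mt-Nd3 had the lowest value, -1.16. That fit ties the dcKO group to Ctrl through dcKO 3 alone, and its calls are given below. In the model without a block, no mitochondrial gene passed the test. edgeR called 0 of 16, beside 0% of all genes. DESeq2 also called 0, beside 4.66% of all genes higher and 3.79% lower. At an unadjusted p under 0.05 edgeR and DESeq2 each gave 1 of 16, beside 18% of all genes higher and 11.2% lower by edgeR. The gene was mt-Co1, with a log2 fold change of 0.86 (SE 0.36, edgeR adjusted p = 0.151). For 0 of the 16 genes did the dcKO embryos stand apart from all controls, beside 26.8% of all genes tested. mt-Nd1, mt-Nd2, mt-Nd5, mt-Nd6, mt-Cytb and mt-Atp8, which have no copy among those on chromosome 1, had log2 fold changes of 0.63, 0.79, 0.83, 0.87, 0.65 and 0.65.

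These values depend on dcKO 3, which was picked by its low mitochondrial levels, so the calls without it are no independent evidence of a rise. Without it, edgeR called 11 of 16 mitochondrial genes higher in dcKO against Ctrl, beside 8.46% of all genes tested, and DESeq2 called 10, beside 8.21%. The median of the 13 mRNAs was then 1.04 with a range from 0.67 to 1.28, and mt-Co1 had a log2 fold change of 1.21 (SE 0.20, edgeR adjusted p = 0.00104). mt-Rnr1, mt-Rnr2, mt-Co2, mt-Co3 and mt-Nd3 did not pass, since their log2 fold changes of 0.87, 0.74, 0.90, 0.86 and 0.67 stayed under 1. Without dcKO 2 the median was 0.24 and mt-Nd3 stood at -0.39, with 0 of 16 called where 980 of all genes were called higher and 350 lower, and without dcKO 1 the median was 0.72. Of the dcKO embryos only dcKO 3 shares a collection number, part of the label of each embryo, with a control, which is Ctrl 3, and what that number stands for is not stated.

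dcKO against cKO compares the 2 mutants, which differ by label in Trp53. Trp53 itself stood at a log2 fold change of -1.77 (SE 0.61, edgeR adjusted p = 0.889) and Cnot3 at 0.67 (SE 0.51). Without dcKO 3 they stood at -1.40 (SE 0.57, edgeR adjusted p = 0.0916) and 0.83 (SE 0.53), so neither was called. The log2 fold changes of the mRNAs ran from 0.55 for mt-Nd3 to 1.06 for mt-Atp8, with a median of 0.81 beside 0.07 over all genes tested, but it was 0.30 with 12 of 13 above 0 after correction for GC content and -0.92 when blocked by collection number. In the model without a block, edgeR called 0 of 16 genes, beside 0.0146% of all genes tested, and DESeq2 0, beside 0.38%. At an unadjusted p under 0.05 edgeR gave 2, mt-Atp8 and mt-Co1, and DESeq2 4, where edgeR gave 2.05% of all genes higher. mt-Atp8 had a log2 fold change of 1.06 (SE 0.43) and mt-Co1 one of 0.88 (SE 0.36), each with an edgeR adjusted p of 0.889. The groups overlapped for all 16 genes, beside 6.24% of all genes tested that did not overlap, as dcKO 3 lay below every cKO embryo for each of the 13 mRNAs. Without dcKO 3, edgeR called 13 genes higher, beside 2.58% of all genes, and DESeq2 13, beside 2.99%, with a median of 1.18 over the mRNAs. Without dcKO 2 the median was 0.32, with 0 of 16 called where 0 of all genes were called higher and 4 lower. Markers of blood, vessels and microglia were also lower in dcKO against cKO, with counts given below, and their part was not tested.

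Within the mRNA reads, mt-Co1 held 25.9%, 30% and 28.8% of the mRNA reads in Ctrl, 30%, 29.5% and 30.3% in cKO, and 33.9%, 29.4% and 33.4% in dcKO. mt-Nd3 held 4.01%, 2.94% and 2.9% in Ctrl, 3.06%, 2.64% and 2.94% in cKO, and 1.96%, 2.8% and 2.13% in dcKO, the only mRNA whose share was below every control in every dcKO embryo. In cKO this held for mt-Nd1 (8.18% ± 0.146 in Ctrl, 7.73% ± 0.0414 in cKO), mt-Cytb (9.91% ± 0.267, 9.08% ± 0.19) and mt-Atp8 (0.323% ± 0.0167, 0.258% ± 0.0183; SD, n = 3 each). The shares of the other mRNAs overlapped between each mutant and Ctrl. By level, 57.2% of all genes tested did not overlap between cKO and Ctrl in either direction, and 26.8% between dcKO and Ctrl.

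Library depth had the same order as the mitochondrial share across dcKO embryos. Its part in the share, and that of the GC content of the genes, was not tested. The embryos with the highest share, dcKO 1 and dcKO 2, had the deepest libraries. The mitochondrial mRNAs are poor in G and C, with 31.9% to 41.1% GC and a median of 37.1%, beside a median of 49.4% over the 13561 tested genes with a GC value. After the GC correction the dcKO median of the mRNAs was 0.01, as given above.

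Markers of blood, vessels, meninges and microglia, cells outside the Emx1 lineage, summed lower in every dcKO embryo than in every control. Of all genes tested, 26.8% did not overlap between these groups in either direction. The 9 red blood cell markers, with Hbb-y the most abundant, summed to 10221, 11462 and 7691 CPM in Ctrl, 14502, 9532 and 12855 in cKO, and 6785, 4948 and 6535 in dcKO, and 5 of 9 were lower in dcKO at an unadjusted edgeR p under 0.05, beside 11.2% of all genes tested, and 4 were called lower by DESeq2 (Hba-x, Hba-a1, Hba-a2 and Hbb-bt), beside 3.79%. The 5 endothelial markers, led by Kdr, summed to 189, 230.1 and 247 CPM in Ctrl, 252, 239.9 and 179 in cKO, and 126, 133 and 115.5 in dcKO, and 3 of 5 were lower in dcKO at that level, with Cdh5 called by DESeq2. Within the red blood cell sum the members differed: dcKO 3 stood above dcKO 1 and dcKO 2 for Hba-x, Hba-a1, Hba-a2, Hbb-bt and Hbb-bs, the last 4 also above Ctrl 3, and below both for Hbb-y and Hbb-bh1. The 6 meningeal markers, led by Col3a1, summed to 789, 858 and 779.9 CPM in Ctrl, 499, 694 and 452 in cKO, and 324, 343 and 518 in dcKO, with 3 of 6 lower in dcKO, Col1a1, Col1a2 and Col3a1, all called by DESeq2. The other 3, Dcn, Lum and Foxc1, overlapped between dcKO and Ctrl. Lum stood at 55.7, 70.6 and 30.1 CPM in dcKO against 43.2 to 67.3, so the lower sum came from the collagen genes. The 7 microglial markers, led by Csf1r, summed to 43.3, 49.0 and 39.5 CPM in Ctrl, 62.5, 86.6 and 39.8 in cKO, and 23.0, 16.3 and 35.8 in dcKO, with 1 of 6 tested lower. Of the microglial markers, P2ry12 stood at 2.80, 1.51 and 0.952 CPM in dcKO against 1.26 to 1.73 in Ctrl. In the meningeal and microglial sums dcKO 3 was nearer the controls than dcKO 1 and dcKO 2 were. With dcKO 3 left out, edgeR called 5 of 9, 2 of 5, 3 of 6 and 4 of 6 markers of these lists lower in dcKO, beside 15.3% of all genes. In cKO that fit called 1 red blood cell marker higher and 1 meningeal marker lower, beside 722 higher and 751 lower of all genes. For dcKO against cKO with all 9 embryos, 7, 3, 0 and 5 markers of these lists were lower at an unadjusted edgeR p under 0.05. Over all genes 605 of 13680 passed that level in either direction. There DESeq2 called Hbb-y, Hba-x and Cdh5 lower, beside 0.38% of all genes called. Without dcKO 3, edgeR called 6, 2, 2 and 4 lower against cKO, beside 883 of 13680 genes.

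Cells of the lineage itself were compared too. The 6 radial glia markers, led by Vim, summed to 2962, 2762 and 2579 CPM in Ctrl, 2871, 3079 and 2550.3 in cKO, and 2649, 2859 and 2941 in dcKO, and the groups overlapped in the sum. The members differed in cKO. Vim was above every control there (1768, 2030 and 1659 against 1159 to 1496). Nes (753, 640 and 568 against 1030 to 1085), Hes1 and Hes5 were below every control, and Sox2 and Fabp7 overlapped. In dcKO, Nes alone stood apart, below every control. Of all genes tested, 57.2% did not overlap between cKO and Ctrl in either direction, and 26.8% between dcKO and Ctrl. The 3 intermediate progenitor markers, led by Eomes, summed to 451, 407 and 359 CPM in Ctrl, 407, 355 and 337 in cKO, and 321, 602 and 374 in dcKO. The 7 neuronal markers, led by Tubb3, summed to 1761, 1576 and 1330.3 CPM in Ctrl, 1312, 1405 and 1005 in cKO, and 855, 1714 and 1369 in dcKO. dcKO 2 had the highest sum of its group for progenitors and neurons, and dcKO 1 the lowest for both. The neuronal members differed within the group. Dcx, Map2, Tbr1 and Neurod1 were highest in dcKO 2, at 385, 674, 217 and 50.4 CPM. Tubb3, Neurod2 and Neurod6 were highest in dcKO 3, at 624, 43.6 and 181 CPM. The part of these cells in the mitochondrial share was not tested. The 5 choroid plexus and hem markers, led by Wnt8b, summed to 61.6, 85.8 and 68.4 CPM in Ctrl, 84.5, 201 and 269 in cKO, and 309, 122 and 109 in dcKO. DESeq2 called Lhx2 and Emx1 of dorsal telencephalon and Hes5 of radial glia lower in cKO, and Rspo2 of choroid plexus and hem higher in both mutants, and edgeR called none of these with all 9 embryos. Over all genes DESeq2 called 4.94% higher and 3.87% lower in cKO, and 4.66% higher in dcKO. In the fit without dcKO 3, 1 of 6 radial glia markers, 0 of 3 progenitor markers and 2 of 7 neuronal markers were called lower in dcKO by edgeR, beside 15.3% of all genes, and 1 of 2 tested choroid plexus and hem markers higher, beside 8.46%. For cKO it gave 1 radial glia marker lower and 1 choroid plexus and hem marker higher, beside 751 and 722 of all genes.

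The nuclear-encoded partners in the same complexes were compared next. Of 71 nuclear subunits of complexes I, III, IV and V, the log2 fold changes of 18 were above 0 in cKO (median -0.32) and of 25 in dcKO (median -0.25), beside medians of 0.01 and 0.11 over all genes tested. At an unadjusted edgeR p under 0.05, 6 were higher and 14 lower in cKO, beside 15.3% and 11.7% of all genes, and 6 higher and 18 lower in dcKO, beside 18% and 11.2%. edgeR called 0 of them in either mutant, and DESeq2 called 1 lower in cKO and 0 in dcKO, beside 3.87% and 3.79% of all genes. Leaving out dcKO 3 gave 1 edgeR call higher and 20 lower in dcKO, beside 8.46% and 15.3% of all genes, and the median was -0.34. In cKO the same fit called 0 higher and 9 lower, beside 722 and 751 of all genes. In dcKO against cKO the median was 0.04 and 0 passed an unadjusted p under 0.05, but without dcKO 3 the median was -0.11 and edgeR called 0 higher and 8 lower, beside 353 and 883 of all genes. The median of the 13 mitochondrial mRNAs there was 0.81, or 0.30 after correction for GC content and -0.92 when blocked by collection number, and a test of nuclear against mitochondrial subunits was not made. The ratio of mitochondrial to nuclear subunit CPM over the 4 complexes was 0.725, 0.882 and 1.01 in Ctrl, 0.807, 1.03 and 0.967 in cKO, and 1.89, 2.36 and 0.636 in dcKO.

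In complex IV the nuclear subunits and the mitochondrial ones can be set side by side. The 11 nuclear subunits, led by Cox4i1, summed to 1298, 1359 and 1293 CPM in Ctrl, 880.3, 858 and 879 in cKO, and 684, 1117 and 1019 in dcKO, below every control in each mutant embryo, where 57.2% of all genes tested did not overlap between cKO and Ctrl in either direction and 26.8% between dcKO and Ctrl. Of the 11, 6 were lower in cKO, beside 11.7% of all genes, and 7 in dcKO, beside 11.2%, at an unadjusted edgeR p under 0.05, 0 were called by edgeR or DESeq2, and their medians were -0.64 and -0.43. When dcKO 3 was left out, edgeR called 2 lower in dcKO, beside 15.3% of all genes, and 0 in cKO, and the dcKO median was -0.51. The 3 mitochondrial subunits summed to 3775, 4727 and 5295 CPM in Ctrl, 3949, 4565 and 4546 in cKO, and 8389.7, 10745 and 3503 in dcKO. The ratio of mitochondrial to nuclear CPM was thus 2.91, 3.48 and 4.1 in Ctrl, 4.49, 5.32 and 5.17 in cKO, and 12.3, 9.62 and 3.44 in dcKO, above every control in all cKO embryos. Cox6c, a small structural subunit, stood at a log2 fold change of -0.97 (SE 0.27) in cKO and -0.64 (SE 0.27) in dcKO, and Cox8a at -0.69 (SE 0.20) and -0.68 (SE 0.20). Without dcKO 3 they stood at -0.63 and -0.84 in dcKO.

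For the nuclear subunits of the other complexes, counts at an unadjusted edgeR p under 0.05 stand beside 15.3% of all genes higher and 11.7% lower in cKO, and 18% and 11.2% in dcKO. Of 36 complex I subunits 4 were higher and 2 lower in cKO, and 4 higher and 6 lower in dcKO (medians -0.22 and -0.12), among the higher Ndufa9 with 0.66 (SE 0.20) in cKO and Ndufs1 with 0.65 (SE 0.19) in dcKO. Of 9 complex III subunits 2 were higher and 2 lower in cKO, and 2 higher and 1 lower in dcKO (medians -0.09 and -0.20). Uqcrq, a complex III subunit, had 57.6, 30.3 and 19.1 CPM in Ctrl, 8.14, 9.18 and 9.92 in cKO and 4.3, 11.5 and 25.9 in dcKO, and was called lower in cKO by DESeq2 but not by edgeR (log2 fold change -1.97, SE 0.59, edgeR adjusted p = 0.076). Of 15 complex V subunits 0 were higher and 4 lower in each mutant (medians -0.32 and -0.21), with Atp5e, the epsilon subunit, at -0.92 (SE 0.22) in cKO and -0.90 (SE 0.22) in dcKO. The edgeR calls in dcKO without dcKO 3 were 0 higher and 10 lower of complex I, 1 higher and 4 lower of complex III, and 0 higher and 4 lower of complex V, beside 8.46% and 15.3% of all genes, with medians of -0.24, -0.91 and -0.29. Among those lower were then Uqcrq (-2.17, SE 0.50) and Atp5e (-1.08, SE 0.20), while Ndufs1 stood at 0.78. In cKO that fit called 0 higher and 5, 3 and 1 lower of complexes I, III and V, Uqcrq among them (-1.97, SE 0.43), beside 722 and 751 of all genes.

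Factors that act on the mitochondrial genome come from nuclear genes as well. Of 10 transcription genes, 3 were higher and 0 lower in cKO, and 8 higher and 0 lower in dcKO, at an unadjusted edgeR p under 0.05, beside the 15.3% higher in cKO and 18% in dcKO over all genes. Their medians were 0.40 and 0.78, and 0 were called by edgeR and 1 higher by DESeq2, in dcKO, beside 4.66% of all genes. Their summed level, with Tfam the most abundant, was 245, 217 and 222 CPM in Ctrl, 252, 261 and 275 in cKO, and 339, 371 and 268 in dcKO. dcKO 3 was thus above every control here, while its mitochondrial mRNAs were not. Tfb1m, an rRNA methyltransferase related to a transcription factor of the organelle, stood at 9.95, 11.2 and 10.5 CPM in Ctrl, 20.9, 17.8 and 21.8 in cKO and 30.9, 18.9 and 17.5 in dcKO. Its log2 fold changes were 0.94 (SE 0.26) and 1.09 (SE 0.26), the latter called by DESeq2 but not by edgeR (adjusted p = 0.0519). Of the 10, 4 were called higher in dcKO by edgeR without dcKO 3, beside 8.46% of all genes, and 1 lower, beside 15.3%, with a median of 0.85 and Tfb1m among the higher (1.24, SE 0.23).

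Of 10 genes for replication and packaging of mitochondrial DNA, 1 was higher and 2 lower in cKO at an unadjusted edgeR p under 0.05, beside 15.3% and 11.7% of all genes, and 2 higher and 0 lower in dcKO, beside 18% and 11.2%. The medians were 0.03 and -0.17, with 0 called by edgeR or DESeq2, and without dcKO 3 edgeR called 1 higher and 0 lower in dcKO, beside 8.46% and 15.3% of all genes, with a median of -0.14. The members with the smallest p were Lig3, a DNA ligase, with -0.40 (SE 0.17) in cKO, and Primpol, a primase-polymerase, with 0.82 (SE 0.25) in dcKO, or 0.93 without dcKO 3. Of the 27 genes for processing and decay of mitochondrial RNA 26 were found and tested, and 3 were higher and 1 lower in cKO, beside 15.3% and 11.7% of all genes, and 10 higher and 1 lower in dcKO, beside 18% and 11.2%, with medians of 0.25 and 0.40 and 0 called by either tool. In the fit that omits dcKO 3, edgeR called 3 higher and 3 lower in dcKO, beside 8.46% and 15.3% of all genes, with a median of 0.54. Nsun4, which methylates the small-subunit rRNA, stood at 0.96 (SE 0.21) in cKO and 0.76 (SE 0.21) in dcKO, and Pnpt1, the polynucleotide phosphorylase of mitochondrial RNA decay, at 0.88 (SE 0.24) and 1.00 (SE 0.24). Without dcKO 3 they stood at 0.79 and 1.21 in dcKO, where Pnpt1 was called higher by edgeR. Pnpt1 stood at 23.5, 22.8 and 29.9 CPM in Ctrl, 50.5, 42.1 and 48.3 in cKO, and 62.9, 55.0 and 35.0 in dcKO.

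Of 7 regulators of mitochondrial biogenesis 6 were tested, with 1 higher and 1 lower in cKO, beside 15.3% and 11.7% of all genes, and 1 higher and 2 lower in dcKO, beside 18% and 11.2%, at an unadjusted edgeR p under 0.05, and medians of -0.39 and -0.28. The higher one in each was Ppargc1a, a coactivator of genes for mitochondrial proteins, at 5.3, 4.36 and 5.37 CPM in Ctrl, 19.4, 25.3 and 12.6 in cKO, and 20.0, 6.74 and 12.4 in dcKO. DESeq2 called it higher in both mutants and edgeR in neither, with log2 fold changes of 1.93 (SE 0.41, edgeR adjusted p = 0.0509) and 1.38 (SE 0.41, edgeR adjusted p = 0.07). Without dcKO 3, edgeR called it higher in cKO (1.93, SE 0.40) and 1 of the 6 lower, beside 722 and 751 of all genes. In dcKO the same fit called it higher (1.41, SE 0.42) and 2 of the 6 lower, beside 8.46% and 15.3% of all genes, with a median of -0.26. Of 78 mitochondrial ribosomal protein genes 76 were tested, with 15 higher and 7 lower in cKO, beside 15.3% and 11.7% of all genes, and 12 higher and 2 lower in dcKO, beside 18% and 11.2%, and medians of 0.07 and 0.09. Mrps30 was called higher in dcKO by DESeq2 but not by edgeR, with a log2 fold change of 1.08 (SE 0.24, edgeR adjusted p = 0.0503). Once dcKO 3 was omitted, edgeR called it alone higher in dcKO (1.22, SE 0.21) and 10 lower, beside 8.46% and 15.3% of all genes, with a median of -0.02, and in cKO 0 higher and 4 lower, beside 722 and 751. The rRNAs these proteins bind stood at 0.51 (SE 0.37) for mt-Rnr1 and 0.40 (SE 0.37) for mt-Rnr2 in dcKO, and with dcKO 3 left out at 0.87 and 0.74.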

How the data were processed

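Cortical RNA of 9 single embryos (3 per group, groups and replicate numbers from the labels) was sequenced as stranded poly(A) libraries. The authors trimmed reads with Cutadapt, aligned them to mm39 with STAR and deposited featureCounts raw counts per gene, with no normalization. Versions, annotation, strand setting and treatment of multi-mapping reads are not given in the sources used here.

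Counts were tested as deposited in R 4.3.3 with edgeR 4.0.16 (quasi-likelihood test, TMM factors, all 9 embryos in one model, genes counted above 10 in all 9 embryos, Benjamini-Hochberg adjustment over 13680 genes). An SE is the log2 fold change divided by the square root of F. DESeq2 1.42.0 and limma 3.58.1 were alternatives, with other factors and filters, each embryo left out, a GC correction (loess span 0.3), and the replicate or collection number as a block. CPM used TMM factors. Single genes were also compared by exact permutation of the 6 embryos of a comparison (two-sided). Ensembl identifiers of the table gave a symbol for 52029 genes, and gene positions, sequences and GC content came from GENCODE M21 on GRCm38 by the same identifiers. Nuclear copies were aligned with Biopython 1.88 in Python 3.11.15. The scripts were tested on simulated data.

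All mitochondrial mRNAs and rRNAs are named, and the tRNAs with more than 10 reads in every embryo. mt-Tn and mt-Tc, and cell type markers named beyond the rule that follows, were named after their values were seen. Of each nuclear list of mitochondrial factors, and of the cell type markers, members called by either tool in either mutant are named or, for the former, with none called, the member with the smallest p in each mutant, and Cnot3 and Trp53 as label checks. Members and lists were chosen with earlier results of these data known. Removal of the nuclear copies from the library sizes, DESeq2 without dcKO 3, and the gene lists without dcKO 3, were added after the data were seen. Metabolic labelling and imaging experiments were not analysed here.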

Additional observations from a re-analysis of the deposited data

How the results depend on the processing

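With each embryo of Ctrl and cKO left out in turn, and under every normalization, filter and tool tried with all 9 embryos, 0 mitochondrial genes were called in any comparison, except when embryos were blocked by collection number. That block called 1 gene lower in dcKO against Ctrl and 2 in dcKO against cKO, beside 404 and 234 of all genes called lower, with medians of the 13 mRNAs of -0.76 and -0.92. There the dcKO group is tied to the others through dcKO 3 alone, the only dcKO embryo that shares its number with another group. Leaving out 1 embryo gave 0 to 11 calls in dcKO against Ctrl and 0 to 13 in dcKO against cKO, all of them without dcKO 3, where DESeq2 gave 10 and 13. In cKO against Ctrl the range was 0 to 0. The medians then ranged from -0.18 to 0.04, from 0.24 to 1.04 and from 0.32 to 1.18. The GC correction moved the cKO median to -0.30, and to -0.31 with the replicate block. In each case beyond left-out embryos the cause was not tested. The replicate block without the GC correction gave 0 calls and medians of -0.08, 0.63 and 0.73. Deviations of embryos with the same replicate number correlated between -0.54 and 0.13, so these numbers are taken as names only. For pairs that share a collection number the correlation was 0.19 (Ctrl 1 with cKO 2), -0.013 (Ctrl 2 with cKO 3) and -0.54 (Ctrl 3 with dcKO 3). The last pair is the one that ties dcKO to the other groups in that block. At an unadjusted p under 0.05, limma voom gave 3, 13 and 15 of 16 genes in the 3 comparisons, with 0 called, beside 8212, 8002 and 4082 of 13680 genes at that level. Upper-quartile factors and total counts moved the median of all genes in cKO to 0.12 and 0.18.

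The mRNAs and rRNAs that changed sign are given by their log2 fold change, and the cause was not tested. The sign of mt-Tp also turned when blocked by collection number. It went from -0.09 to 0.12 in cKO against Ctrl, from 0.63 to -1.10 in dcKO against Ctrl and from 0.72 to -1.22 in dcKO against cKO. Other settings are not listed for mt-Tp.  With upper-quartile factors, the sign turned in cKO against Ctrl mt-Nd2 0.089, mt-Nd4l 0.060, mt-Nd4 0.059, mt-Co1 0.082, mt-Atp6 0.044, mt-Rnr1 0.028. With total counts only, the sign turned in cKO against Ctrl mt-Nd2 0.16, mt-Nd4l 0.12, mt-Nd4 0.13, mt-Co1 0.15, mt-Co3 0.041, mt-Atp6 0.11, mt-Rnr1 0.095. Blocked by collection number, the sign turned in cKO against Ctrl mt-Nd1 0.045, mt-Nd2 0.24, mt-Nd4l 0.25, mt-Nd4 0.19, mt-Co1 0.21, mt-Co2 0.027, mt-Atp6 0.12, mt-Rnr1 0.12, and in dcKO against Ctrl mt-Nd1 -0.94, mt-Nd2 -0.68, mt-Nd3 -1.16, mt-Nd4l -0.71, mt-Nd4 -0.71, mt-Nd5 -0.74, mt-Nd6 -0.97, mt-Cytb -0.98, mt-Co1 -0.49, mt-Co2 -0.82, mt-Co3 -0.64, mt-Atp8 -0.96, mt-Atp6 -0.76, mt-Rnr1 -0.86, mt-Rnr2 -0.80, and in dcKO against cKO mt-Nd1 -0.98, mt-Nd2 -0.92, mt-Nd3 -0.96, mt-Nd4l -0.96, mt-Nd4 -0.90, mt-Nd5 -1.14, mt-Nd6 -1.36, mt-Cytb -0.98, mt-Co1 -0.70, mt-Co2 -0.85, mt-Co3 -0.63, mt-Atp8 -0.79, mt-Atp6 -0.88, mt-Rnr1 -0.97, mt-Rnr2 -0.64. With limma voom, the sign turned in cKO against Ctrl mt-Nd5 -0.10, mt-Nd6 -0.070. Without a filter, the sign turned in cKO against Ctrl mt-Nd5 -0.0058, mt-Nd6 -0.011. With filterByExpr, the sign turned in cKO against Ctrl mt-Nd5 -0.0042, mt-Nd6 -0.0097. With the GC correction, the sign turned in cKO against Ctrl mt-Nd5 -0.16, mt-Nd6 -0.11, and in dcKO against Ctrl mt-Nd1 -0.062, mt-Nd3 -0.54, mt-Cytb -0.022, mt-Co2 -0.090, mt-Co3 -0.093, mt-Atp8 -0.18, mt-Rnr1 -0.22, mt-Rnr2 -0.33, and in dcKO against cKO mt-Nd3 -0.13. With the GC correction and the replicate block, the sign turned in cKO against Ctrl mt-Nd5 -0.15, mt-Nd6 -0.11, and in dcKO against Ctrl mt-Nd1 -0.076, mt-Nd3 -0.56, mt-Cytb -0.046, mt-Co2 -0.10, mt-Co3 -0.10, mt-Atp8 -0.19, mt-Atp6 -0.0032, mt-Rnr1 -0.22, mt-Rnr2 -0.34, and in dcKO against cKO mt-Nd3 -0.15. With each embryo left out in turn, log2 fold changes that crossed 0 ranged, in cKO against Ctrl mt-Nd2 -0.15 to 0.15, mt-Nd4l -0.21 to 0.12, mt-Nd4 -0.16 to 0.10, mt-Nd5 -0.16 to 0.22, mt-Nd6 -0.15 to 0.21, mt-Co1 -0.19 to 0.10, mt-Atp6 -0.14 to 0.040, mt-Rnr1 -0.18 to 0.027, and in dcKO against Ctrl mt-Nd3 -0.39 to 0.67, mt-Rnr2 -0.21 to 0.74, and in dcKO against cKO mt-Nd3 -0.13 to 0.94.

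Limits remain. With 3 embryos per group the exact test cannot go below 0.1, and 1 embryo decides whether mitochondrial genes are called in dcKO. Genes with near-identical nuclear copies share reads, and tRNAs other than mt-Tp are read too thinly to compare. Poly(A) libraries give only the polyadenylated part of rRNA and tRNA. CPM are shares of a library, so they hold no amount of RNA per cell, and neither mitochondrial DNA nor protein was measured in these data. Positions and lengths come from GRCm38, whereas the reads were aligned to mm39.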

Other observations

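Other RNAs that lack a long poly(A) tail give a measure of what these libraries capture beside mRNAs. Of the small nuclear, small nucleolar and similar RNAs listed, 36 had reads and 80 had none, and 0 passed the filter on low counts, and Snord91a was the most abundant. Their summed level was 2.08, 3.77 and 4.0 CPM in Ctrl, 2.44, 3.57 and 2.98 in cKO and 3.14, 3.01 and 1.61 in dcKO. The levels overlapped between groups, and dcKO 1 and dcKO 2 lay within the range of the controls.

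Histone genes of the replication-dependent clusters make mRNAs that end in a stem-loop. Of 71 genes with such symbols 64 had reads and 7 were tested, with 0 called by edgeR or DESeq2, and at an unadjusted edgeR p under 0.05 a single one was lower in cKO, beside 11.7% of all genes, and 0 in dcKO, beside 11.2%. The summed level was 698, 625 and 559 CPM in Ctrl, 406, 361 and 418 in cKO and 384, 608 and 558 in dcKO. Most of it came from H1f0, which is a polyadenylated histone gene outside the clusters that the symbol rule took in, with 544, 527 and 487 CPM in Ctrl, 333, 274 and 349 in cKO, and 282, 526 and 427 in dcKO. H1f0 had a log2 fold change of -0.71 (SE 0.23) in cKO, and Hist1h2bc one of 0.92 (SE 0.55) in dcKO, or 0.69 (SE 0.58) without dcKO 3, where edgeR called 1 of the 7 lower, beside 15.3% of all genes.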
